A study of Rattus norvegicus with 10 samples.

Results

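The genes described here carry the signal of the interleukin 6 (IL-6) family and its acute phase output: Osmr, Il6st, Il6ra, Stat3, Socs3, Cebpb, Serpina3n and Lcn2. They were taken from the expression table by gene symbol, and were chosen with earlier results of these data known. Of the 8 genes, 7 had a row, 1 transcript each, among 17221 transcripts of 16497 symbols, and all 7 had enough signal to be tested with 10259 transcripts in all. Il6ra was not analysed here. The tissue was muscle from beneath the skin of female Wistar rats, and every animal of all 5 groups had collagen-induced arthritis, for which rats are immunised with bovine type II collagen as a model of the rheumatoid disease. The groups held 2 libraries each: RA_0 before any therapy, AP_1h and AP_34d at 1 h and 34 days of acupuncture, and PLA_1h and PLA_34d at the same times of a saline placebo. Acupuncture was the insertion and twirling of a needle, and per the study's methods the saline was injected into the peritoneum and not into the sampled tissue. Nothing in the labels says how the 2 libraries of a group relate beyond their numbers, so p-values measure the spread between these libraries, which may be technical in part.

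Cytokines of the IL-6 family, among them IL-6, oncostatin M and leukaemia inhibitory factor, bind a receptor of their own and then the shared chain gp130, encoded by Il6st. Janus kinases on the receptors phosphorylate STAT3, which enters the nucleus and switches on target genes, including its own inhibitor Socs3, the transcription factor C/EBP and acute phase proteins. In muscle this signal is known for its part in the response to exercise, injury and wasting, and the liver is the main source of the acute phase proteins in blood.

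Levels are given in CPM, reads per 1e+06 reads of the library scaled with TMM factors, in which 1 CPM stood for between 4.19 and 10.1 reads. The libraries held between 5371687 and 8899521 counted reads, and RA_0 replicate 1 was the shallowest. Where no read was counted, a level of up to 0.297 to 0.716 CPM, by library, is still possible (3 reads, counting error only). The muscle markers Acta1 and Ckm, an actin and a creatine kinase, were between 30415 and 134964 CPM and between 16181 and 56881 CPM in the 10 libraries. PLA_34d replicate 1 stood apart with B cell and lymph node genes: Glycam1, a mucin of lymph node vessels, was 172 CPM there, 4.12 CPM in PLA_34d replicate 2 and 0 CPM in the other libraries. In bulk tissue, fewer cells of a type and less RNA per cell cannot be told apart. Because the transcripts' exon lengths were not used, levels are compared between libraries and not between genes.

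The receptor chain Osmr, through which oncostatin M signals, lies at chr2:56080700-56121463 on the minus strand of rn4. Osmr was 2.86 and 5.20 CPM in RA_0, 15.9 and 13.2 CPM in AP_1h, 11.7 and 5.62 CPM in PLA_1h, 7.62 and 28.1 CPM in AP_34d, and 7.07 and 8.81 CPM in PLA_34d. All 8 libraries taken after the start of treatment or placebo were above both RA_0 libraries, which held for 2.17% of all transcripts tested. The mean level was 4.03 ± 1.65 CPM (SD, n = 2) in RA_0 and 14.5 ± 1.94 CPM in AP_1h, and the AP_34d libraries lay so far apart that their mean was 17.9 ± 14.5 CPM.

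Il6st, the shared signalling chain gp130, lies at chr2:43808681-43838684 on the plus strand. Il6st was 169 and 257 CPM in RA_0, 309 and 255 CPM in AP_1h, 307 and 333 CPM in PLA_1h, 317 and 554 CPM in AP_34d, and 331 and 208 CPM in PLA_34d. The highest level was again in AP_34d replicate 2, and neighbouring groups in the order of means overlapped throughout.

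Stat3, the transcription factor that the receptors activate, lies at chr10:89821078-89872970 on the minus strand. Stat3 was 83.0 and 91.5 CPM in RA_0, 190 and 205 CPM in AP_1h, 131 and 102 CPM in PLA_1h, 101 and 324 CPM in AP_34d, and 138 and 100.1 CPM in PLA_34d. The RA_0 libraries were the lowest pair and all 8 later libraries were above both. The AP_1h libraries lay close together, at 197 ± 11.3 CPM (SD, n = 2), above every placebo library. Of the AP_34d libraries, one was within the placebo range and the other was the highest of all. These levels are of the transcript only, and the phosphorylation by which STAT3 works was not measured.

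Socs3, the inhibitor that STAT3 induces and that blocks the kinases at gp130, lies at chr10:107958468-107959330 on the minus strand. Its levels were 1.43 and 4.90 CPM in RA_0, 39.1 and 11.8 CPM in AP_1h, 9.02 and 1.93 CPM in PLA_1h, 1.56 and 25.7 CPM in AP_34d, and 7.96 and 2.56 CPM in PLA_34d. Both AP_1h libraries and AP_34d replicate 2 were above the other 7 libraries. The values rest on between 6 reads, in RA_0 replicate 1, and 362 reads, in AP_1h replicate 1. The libraries of a group differed so widely that no neighbouring groups in the order of means were apart.

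Cebpb, which encodes the transcription factor C/EBP beta of inflammatory and acute phase genes, lies at chr3:158826021-158827845 on the plus strand. Cebpb was 60.6 and 92.5 CPM in RA_0, 138 and 115 CPM in AP_1h, 103 and 83.7 CPM in PLA_1h, 115 and 91.6 CPM in AP_34d, and 44.5 and 83.3 CPM in PLA_34d. The range was narrow, 3.10-fold from the lowest to the highest library. At each time both acupuncture libraries were above both placebo libraries.

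**Figure D1:**
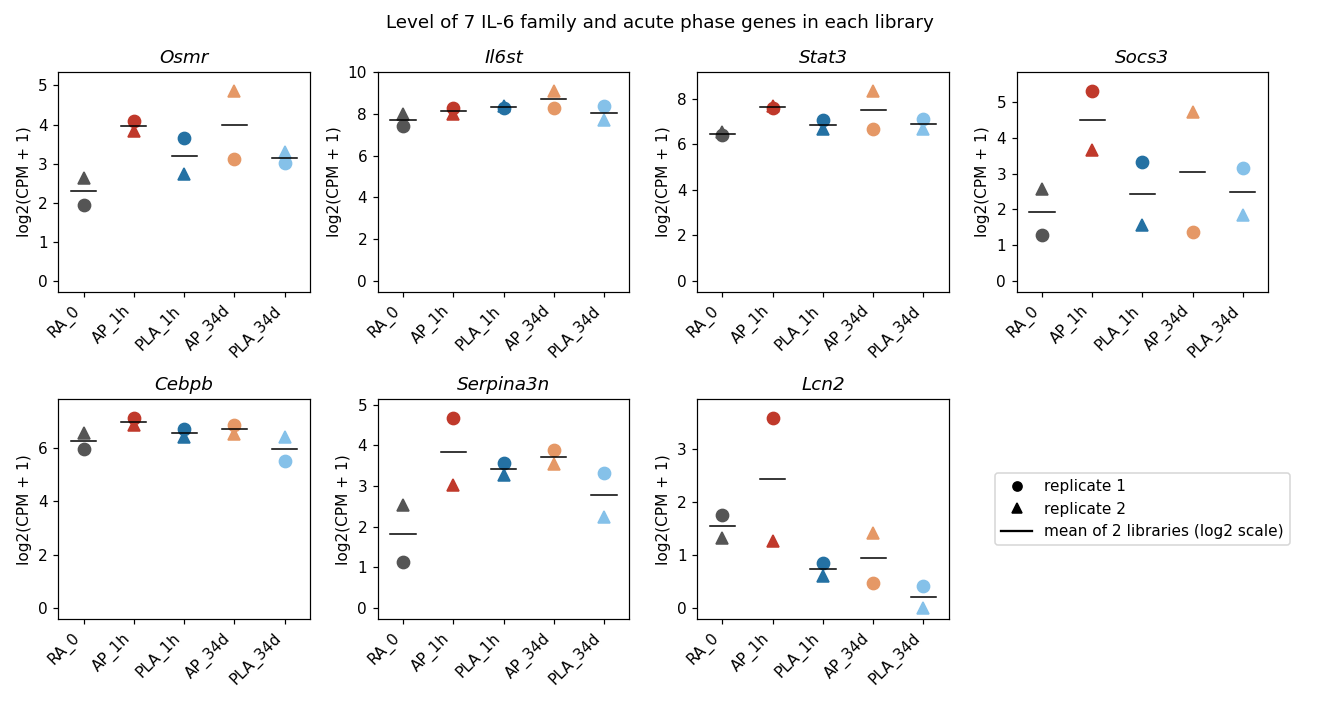
Level of each of the 7 genes in each library, as log2(CPM + 1), by group (RA_0 before therapy, AP acupuncture, PLA saline placebo), with circles for replicate 1, triangles for replicate 2 and bars for the mean of both on that scale. The highest library of every gene is an acupuncture library, AP_1h replicate 1 for 4 genes and AP_34d replicate 2 for 3, the highest libraries of 8.87% and 14.7% of all transcripts tested.

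The acute phase output was read in 2 genes. Serpina3n, a secreted inhibitor of serine proteases and an acute phase gene in rodents, lies at chr6:128461775-128469309 on the plus strand. Serpina3n was 1.19 and 4.75 CPM in RA_0, 24.5 and 7.14 CPM in AP_1h, 10.8 and 8.60 CPM in PLA_1h, 13.9 and 10.8 CPM in AP_34d, and 9.09 and 3.70 CPM in PLA_34d. Of the 8 later libraries, 7 were above both RA_0 libraries, the placebo libraries at 1 h among them. RA_0 replicate 1 rests on 5 reads.

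Lcn2 encodes lipocalin 2, a protein of neutrophil granules that binds bacterial siderophores and is also made by inflamed tissue, and lies at chr3:11511402-11514747 on the minus strand. Lcn2 was 2.39 and 1.49 CPM in RA_0, 10.9 and 1.40 CPM in AP_1h, 0.793 and 0.526 CPM in PLA_1h, 0.391 and 1.64 CPM in AP_34d, and 0.337 and 0 CPM in PLA_34d. A single library, AP_1h replicate 1, held 101 reads, and no other held more than 11. The 4 placebo libraries were below both RA_0 libraries, and the other AP_1h library was not above them.

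Both genes are shown with the sequence before their start, because the letters that STAT and C/EBP factors bind were found in these windows. The start sites and sequences are those of RefSeq on assembly GRCr8, another build than that of the files, and are shown 5′ to 3′ on the gene's strand. The capitals mark TTCNNNGAA, a STAT motif that reads the same on both strands, in Serpina3n, and TTGCNNAA, a C/EBP type motif searched on both strands, in Lcn2.
Serpina3n, chr6:129088142-129088391, plus strand: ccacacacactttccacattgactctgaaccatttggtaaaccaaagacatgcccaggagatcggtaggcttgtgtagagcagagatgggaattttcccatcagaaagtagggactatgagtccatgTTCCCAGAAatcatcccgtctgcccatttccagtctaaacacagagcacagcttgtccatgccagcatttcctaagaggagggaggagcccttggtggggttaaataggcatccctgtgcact
Lcn2, chr3:36081852-36082030, minus strand: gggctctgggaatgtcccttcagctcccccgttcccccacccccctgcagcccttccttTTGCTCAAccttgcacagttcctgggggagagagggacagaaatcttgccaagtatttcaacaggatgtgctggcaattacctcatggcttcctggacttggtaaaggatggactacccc
In Serpina3n the match, TTCCCAGAA, began at position -123 from the start site, and 7.67% of 33469 windows of the same 250 bases hold one. In Lcn2 the match, TTGCTCAA, began at position -191, and the bases are shown as far as the edge of the annotated gene, 179 in all, where 6.96% of windows of that length hold one. The bases shown hold no C/EBP match in Serpina3n and no STAT match in Lcn2. The Cebpb window, whose 250 bases all lie before the annotated gene, held neither motif. For Il6st and Socs3 the windows of the table lie inside the annotated gene, and for Osmr and Stat3 only 9 and 96 bases lie before its edge, so the 7 genes are not compared for these motifs. A match is a description of letters, and binding was not measured.

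The first question of the design is what the tissue showed 1 h after the start of each treatment and after 34 days, each set against RA_0. All 7 genes were higher on average in AP_1h than in RA_0, with a median log2 difference of 1.17 against 0.00205 over all transcripts tested. Serpina3n, Osmr, Stat3 and Socs3 had an unadjusted p under 0.05, which 8.89% of all transcripts reached in either direction and 3.62% reached upward. No gene of the 7 passed the Benjamini-Hochberg adjusted limma threshold of 0.05, which 0.0292% of transcripts passed. Libraries did not overlap, and were higher in AP_1h, for 5 of the 7 genes and for 20.6% of all transcripts.

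On the scale of log2(CPM + 1), which understates the change of low transcripts, Serpina3n was 4.06-fold higher in AP_1h, a difference of 2.02 ± 0.62 (SE), with an unadjusted p of 0.0085 and a limma adjusted p of 0.347. Osmr was 3.16-fold higher, by 1.66 ± 0.56 on the log2 scale, with an unadjusted p of 0.0134 and a limma adjusted p of 0.395. The receptor and the acute phase gene were thus the members with the smallest p in this comparison. For Stat3 the log2 difference was 1.17 ± 0.47, with an unadjusted p of 0.0328 and a limma adjusted p of 0.523. For Socs3 it was 2.58 ± 1.05, the widest difference with the widest error, with an unadjusted p of 0.0342 and a limma adjusted p of 0.528. Without RA_0 replicate 1, or without AP_1h replicate 1, the unadjusted p of each of the 4 genes was no longer under 0.05, while the differences stayed positive. The Stat3 difference also missed it without either of the other libraries of these groups. With the ribosomal RNA transcript Rn45s as a covariate Stat3 and Socs3 missed it, and Socs3 missed it with limma-voom and with no filter on low values as well. Without AP_1h replicate 1 the mean of Lcn2 was below that of RA_0, and 6 of the 7 genes were higher.

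After 34 days of acupuncture, 6 of the 7 genes were higher on average than in RA_0 and Lcn2 was lower, with a median log2 difference of 1.04. No member passed the adjusted limma threshold, and 0.0% of all transcripts did. Serpina3n, Osmr and Il6st had an unadjusted p under 0.05, against 4.77% of all transcripts. The Serpina3n difference was 1.90 ± 0.62 on the log2 scale, with an unadjusted p of 0.012 and a limma adjusted p of 0.967, and its 2 libraries lay close together. The Osmr difference was 1.69 ± 0.56, with an unadjusted p of 0.0121 and the same adjusted p. The Il6st difference was 1.01 ± 0.40, with an unadjusted p of 0.0291 and the same adjusted p. Without AP_34d replicate 2, the library highest in both receptor chains, the Osmr difference fell to 0.82 and that of Il6st to 0.60. Without AP_34d replicate 1 the Serpina3n difference was 1.73. Il6st had no unadjusted p under 0.05 with quantile normalization or with a fit of the compared groups alone. Without RA_0 replicate 1 none of the 3 differences had an unadjusted p under 0.05, and that of Serpina3n was 0.12.

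The placebo groups give the background measured in the same way. In PLA_1h, 6 of the 7 genes were above RA_0 on average and no member passed the adjusted limma threshold, which 0.0% of all transcripts passed. Only Serpina3n had an unadjusted p under 0.05, as had 2.59% of all transcripts. The Serpina3n difference between PLA_1h and RA_0 was 1.58 ± 0.62 on the log2 scale, with an unadjusted p of 0.0286 and a limma adjusted p of 1.00. Without RA_0 replicate 1 this difference was 0.89. With limma-voom its unadjusted p was not under 0.05. The protease inhibitor was thus above RA_0 on average after both treatments at 1 h. In PLA_34d no member was under an unadjusted p of 0.05, against 3.2% of all transcripts, and none passed the adjusted threshold (0.0% of all transcripts). The smallest p was that of Lcn2, lower by 1.33 ± 0.67 on the log2 scale, with an unadjusted p of 0.0738 and a limma adjusted p of 0.914. All these comparisons share the RA_0 libraries, and RA_0 replicate 1 was the lowest of the 10 libraries for 5 of the 7 genes, as it was for 14.5% of all transcripts tested.

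**Figure D2:**
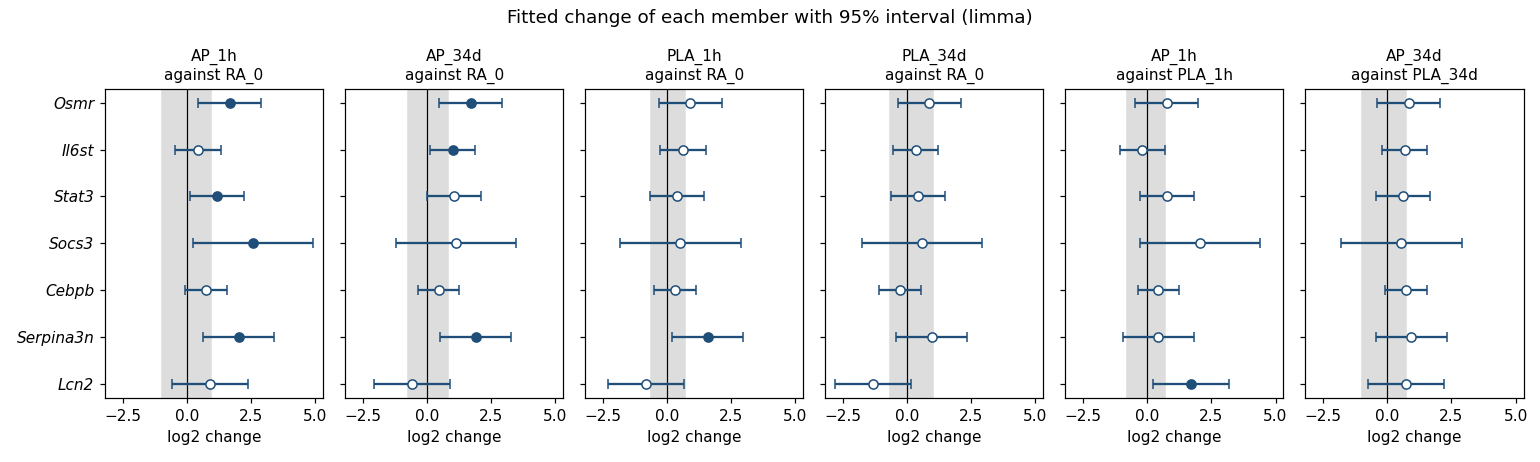
Fitted log2 difference of each gene in the 4 comparisons with RA_0 and the 2 of acupuncture with placebo at one time, with 95% intervals from limma; filled points have an unadjusted p under 0.05 and the grey band holds the middle 90% of all transcripts. Points lie to the right of 0 for all 7 genes in AP_1h against RA_0, and no gene passed the adjusted threshold in any panel.

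The second question is how acupuncture compared with the placebo of its own time point. After 1 h, 6 of the 7 genes were higher on average in AP_1h than in PLA_1h and the libraries of 5 did not overlap, as did those of 13.9% of all transcripts in that direction. No member passed the adjusted limma threshold (0.0% of all transcripts) and 1 had an unadjusted p under 0.05 (4.04% of all transcripts). That gene was Lcn2, higher by 1.69 ± 0.67 on the log2 scale, with an unadjusted p of 0.029 and a limma adjusted p of 1.00. Without AP_1h replicate 1 the Lcn2 difference fell to 0.54. It rests on 101 and 10 reads in AP_1h and on 8 and 3 reads in PLA_1h. With limma-voom its unadjusted p was not under 0.05. The 95% interval of the difference held 0 for the other 6 genes, from -0.28 to 4.41 for Socs3, -0.28 to 1.82 for Stat3, -0.48 to 1.99 for Osmr, -0.38 to 1.25 for Cebpb, -0.94 to 1.82 for Serpina3n and -1.07 to 0.69 for Il6st, so a change of either sign remains possible for each.

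At 34 days all 7 genes were higher on average in AP_34d than in PLA_34d, by between 0.55 and 0.94 on the log2 scale, and 50.2% of all transcripts were. This count rested on AP_34d replicate 2, without which 4 of 7 were higher and the log2 difference was -1.14 for Socs3, -0.22 for Stat3 and -0.05 for Osmr. Socs3 also turned without PLA_34d replicate 2, to -0.12. No member had an unadjusted p under 0.05, which 5.47% of all transcripts had, and none passed the adjusted limma threshold (0.0%). The smallest p was that of Cebpb, higher by 0.74 ± 0.37, with an unadjusted p of 0.0704 and a limma adjusted p of 0.856. Serpina3n, Cebpb and Lcn2 had libraries that did not overlap, as had 1644 of the 10259 transcripts in that direction. For Lcn2 this rested on AP_34d replicate 1 at 0.391 CPM, from 2 reads, against PLA_34d replicate 1 at 0.337 CPM, from 3 reads. Lcn2 is thus not shown to be apart at 34 days beyond counting error. Osmr, Stat3, Il6st and Socs3 overlapped, since AP_34d replicate 1 was within or below the placebo range for them.

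With both times in 1 comparison, acupuncture was above placebo on average for 7 of 7 genes, and for 49.0% of all transcripts. Lcn2 was higher by 1.21 ± 0.47 on the log2 scale, with an unadjusted p of 0.0275 and a limma adjusted p of 0.791. Cebpb was higher by 0.59 ± 0.26, with an unadjusted p of 0.046 and a limma adjusted p of 0.853. These 2 members were read against 5.72% of all transcripts at the same unadjusted threshold, and none passed the adjusted one (0.0%). Each of them lost its unadjusted p under 0.05 without AP_1h replicate 1, where the difference was 0.63 for Lcn2 and 0.52 for Cebpb, and kept it in 18 of 23 and 11 of 24 alternatives.

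Time within each arm was compared as well. From AP_1h to AP_34d no member had an unadjusted p under 0.05 (5.35% of all transcripts) or passed the adjusted limma threshold (0.0%). Lcn2 had the smallest p, lower at 34 days by 1.48 ± 0.67 on the log2 scale, with an unadjusted p of 0.0501 and a limma adjusted p of 0.926. From PLA_1h to PLA_34d the smallest p was that of Cebpb, lower by 0.60 ± 0.37, with an unadjusted p of 0.132 and a limma adjusted p of 0.999, and no member passed either threshold (2.96% and 0.0% of all transcripts). The difference between acupuncture and placebo was not shown to change from 1 h to 34 days in any member (unadjusted 4.05% and adjusted 0.0% of all transcripts). Its smallest p was that of Il6st, with a log2 difference of 0.86 ± 0.56, an unadjusted p of 0.155 and a limma adjusted p of 1.00.

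By the study's own criteria, an unadjusted p under 0.05 with at least a 2-fold change and a mean of at least 1 CPM, 9 of 42 member comparisons over the 6 pairs of groups qualified, beside 3.2% of all such comparisons over the transcripts tested. They were 4 in AP_1h, 3 in AP_34d, 1 in PLA_1h and 0 in PLA_34d against RA_0, where 6.12%, 2.82%, 1.67% and 2.42% of all transcripts qualified. Against placebo there was 1 at 1 h and 0 at 34 days, where 2.62% and 3.57% of all transcripts qualified. Under the adjusted threshold, limma-voom, edgeR and DESeq2 on the recovered reads likewise gave 0 of the 70 member tests over all 10 comparisons, where 7, 16 and 18 had an unadjusted p under 0.05, beside 11 with limma. The comparisons share RA_0 and the members are not independent. The members were also chosen with earlier results of these data known, so their share beside that of all transcripts is a description only. The number was 1 without RA_0 replicate 1, 5 without AP_1h replicate 1 and 15 without AP_34d replicate 1.

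The 21 pairs of members were compared in pattern over the 10 libraries, and the 3 highest values were among Osmr, Stat3 and Socs3. Pearson's r of log2(CPM + 1) was 0.92 between Osmr and Stat3, 0.87 between Socs3 and Stat3, and 0.82 between Osmr and Socs3. For each pair, r was also taken without the 2 libraries farthest from the median of its alphabetically first gene. These 3 values then stayed at 0.76 or more. Osmr, Stat3 and Socs3 are the receptor, the transducer and the inhibitor of the same signal. Between Il6st and Osmr, r fell from 0.72 to -0.08 in this way, and between Il6st and Stat3 from 0.71 to 0.12. Both Pearson values thus rested on the 2 libraries farthest from the Il6st median. The rank correlation (Spearman) over all 10 libraries was 0.31 and 0.56 for these pairs. Il6st with Serpina3n had an r of 0.71, and 0.72 without those 2 libraries. Cebpb with Serpina3n had an r of 0.54, and 0.76 without the 2 farthest from the Cebpb median. Serpina3n with Stat3 had an r of 0.54 and Lcn2 with Stat3 an r of 0.36. The points share libraries, groups and scaling, and these values describe the 10 libraries without a test.

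**Figure D3:**
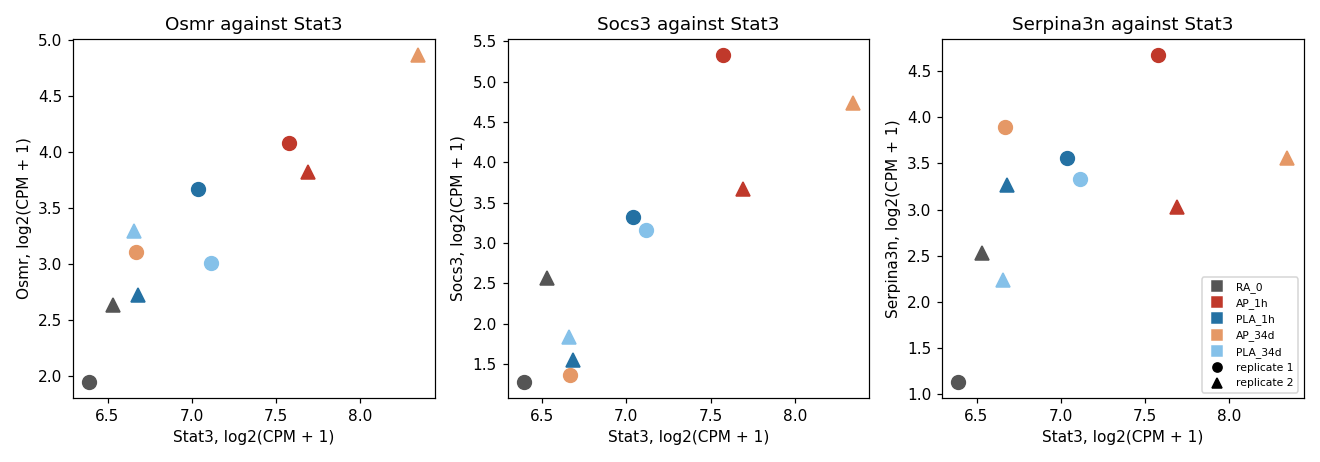
Osmr, Socs3 and Serpina3n against Stat3 in the 10 libraries, all as log2(CPM + 1), with colours for groups and shapes for replicates. Osmr and Socs3 are higher where Stat3 is higher (r 0.92 and 0.87), while Serpina3n is spread more widely (r 0.54).

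The transcripts nearest in pattern to each member, among 8144 or 8145 others with a mean of at least 5 CPM, were mostly of other kinds of genes. Nearest to Stat3 were Midn (r 0.95) and RGD1310352 (0.95), and to Osmr the haem-sensing repressor Bach1 (0.96) and Srfbp1 (0.94). Nearest to Socs3 were Atrn (0.96) and the leukocyte receptor gene Lilrb4 (0.95). Serpina3n was nearest to Rin2 (0.94) and Usp36 (0.94), Il6st to Zc3h18 (0.93) and Ano6 (0.93), and Lcn2 to Fam45a (0.96) and Nelf (0.92). Cebpb was nearest to the metallothionein Mt2A (0.91) and to Akirin2 (0.91). Each is the top of a long search, so values this high are to be read as a ranking.

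The other genes of the pathway were taken from 6 lists of 65 symbols, 60 of them in the table and 40 tested, as 41 transcripts. No transcript of the lists passed the adjusted limma threshold in any of the 6 pairs of groups, and the smallest adjusted p was 0.233. In AP_1h against RA_0, 6 of the 41 had an unadjusted p under 0.05 upward and 1 downward, beside 8.89% of all transcripts in either direction, and the median log2 difference was 0.32, beside 0.00205 over all transcripts. In AP_34d against RA_0 the numbers were 3 and 1 (4.77% of all transcripts), in PLA_1h 2 and 0 (2.59%), and in PLA_34d 3 and 0 (3.2%). For AP_1h against PLA_1h they were 2 and 0 (4.04%), and for AP_34d against PLA_34d 4 and 2 (5.47%).

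The ligands were low or were not shown to differ. Il6 itself was at most 0.747 CPM in 9 libraries and 2.05 CPM in AP_1h replicate 1, and neither it nor Il11, Lif and Osm passed the filter on low values. The ligand genes Cntf, Ctf1, Clcf1 and Ebi3 were tested and had no unadjusted p under 0.05 in any pair of groups. Clcf1 was 7.40 CPM in PLA_34d replicate 1, the library with the B cell genes, and at most 2.86 CPM elsewhere. Oncostatin M, the ligand of Osmr, was at most 1.12 CPM. Of the other receptors, Lifr, the chain for leukaemia inhibitory factor, was 8.35 and 7.72 CPM in RA_0 and 38.0 and 25.7 CPM in PLA_34d. Its log2 difference between these groups was 1.84 ± 0.66, with an unadjusted p of 0.0193 and a limma adjusted p of 0.914. In the other groups Lifr was 8.65 and 11.1 CPM in AP_1h, 18.9 and 8.25 CPM in PLA_1h, and 5.47 and 32.9 CPM in AP_34d.

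The kinases and adaptors behind the receptors gave no unadjusted p under 0.05 in any of the 6 pairs among 10 transcripts tested. Jak2, a kinase bound to gp130, was 67.8 CPM in AP_34d replicate 2 and at most 37.4 CPM in the other libraries. Stat5b was 126 CPM there and at most 76.8 CPM elsewhere; both are named after their values were seen, because this library is also the highest for Stat3, Osmr and Il6st. It was the highest of the 10 libraries for 14.7% of all transcripts tested. Whether one state of that animal or of its sample joins these genes was not tested.

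Among the other inhibitors, Pias3, which blocks STAT3 at DNA, was lower in AP_1h than in RA_0, at 7.47 ± 1.66 against 15.4 ± 2.57 CPM (SD). The log2 difference was -0.96 ± 0.33, with an unadjusted p of 0.0165 and a limma adjusted p of 0.428. Socs2, a relative of Socs3 that acts on growth hormone signalling, was 3.95 ± 1.17 CPM in AP_34d and 11.6 ± 2.06 CPM in PLA_34d, with an unadjusted p of 0.0218 and a limma adjusted p of 0.846. In PLA_34d the phosphatase gene Ptpn6 of blood cells was 46.9 CPM in replicate 1 and 3.98 CPM in replicate 2. Replicate 1 is the library with the B cell genes, and their part in the Ptpn6 level was not tested.

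On average, STAT3 and C/EBP target genes were above RA_0 for 7 of 8 tested in AP_1h and in AP_34d. In both placebo groups 6 of 8 were, beside between 49.0% and 50.1% of all transcripts over these groups. Cebpa, Pim1, Myc and Mcl1 were above the RA_0 mean in both AP_1h libraries. In AP_1h replicate 2 the log2 difference from that mean was -0.21 for Bcl3, -0.09 for Junb, -1.77 for Ier3 and -0.15 for Icam1. The AP_1h averages of Bcl3, Junb and Icam1 were thus above RA_0 through replicate 1, at 2.02, 2.42 and 1.69. The kinase gene Pim1 was 6.92 ± 1.69 CPM in AP_1h and 1.71 ± 0.95 CPM in RA_0, with an unadjusted p of 0.0207 and a limma adjusted p of 0.463. Mcl1, which encodes a survival protein of the BCL2 family, was 211 ± 9.41 CPM in AP_1h and 281 ± 61.9 CPM in AP_34d against 130 ± 15.2 CPM in RA_0. The unadjusted p was 0.0386 and 0.00388, and the limma adjusted p 0.531 and 0.801.

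The acute phase list held genes of the liver that were near 0 and genes with reads in this tissue. Of 23 genes in the table, 9 were tested, and the fibrinogen genes Fga, Fgb and Fgg, Hamp, Apcs and Orm1, all made in liver, were at 0.142 CPM or less in every library. The metallothioneins Mt1a and Mt2A, metal-binding proteins that stress and steroid hormones also raise, had the widest differences of this list. Mt2A was 6.92 and 22.3 CPM in RA_0, 618 and 88.9 CPM in AP_1h, 80.2 and 61.2 CPM in PLA_1h, 63.7 and 93.1 CPM in AP_34d, and 1.79 and 12.2 CPM in PLA_34d. The 6 libraries of AP_1h, PLA_1h and AP_34d were thus all above the 4 of RA_0 and PLA_34d. In AP_1h against RA_0 the Mt2A log2 difference was 4.12 ± 0.91 (unadjusted p 0.00109, limma adjusted p 0.233) and that of Mt1a 3.70 ± 0.94 (0.00275 and 0.241). In AP_34d against PLA_34d they were 3.68 ± 0.91 and 3.22 ± 0.94, with a limma adjusted p of 0.846 for both. Timp1, an inhibitor of matrix proteases that overlaps another gene and so is uncertain, differed from PLA_1h by 1.88 ± 0.48 in AP_1h, with an unadjusted p of 0.00274 and a limma adjusted p of 0.61.

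**Figure D4:**
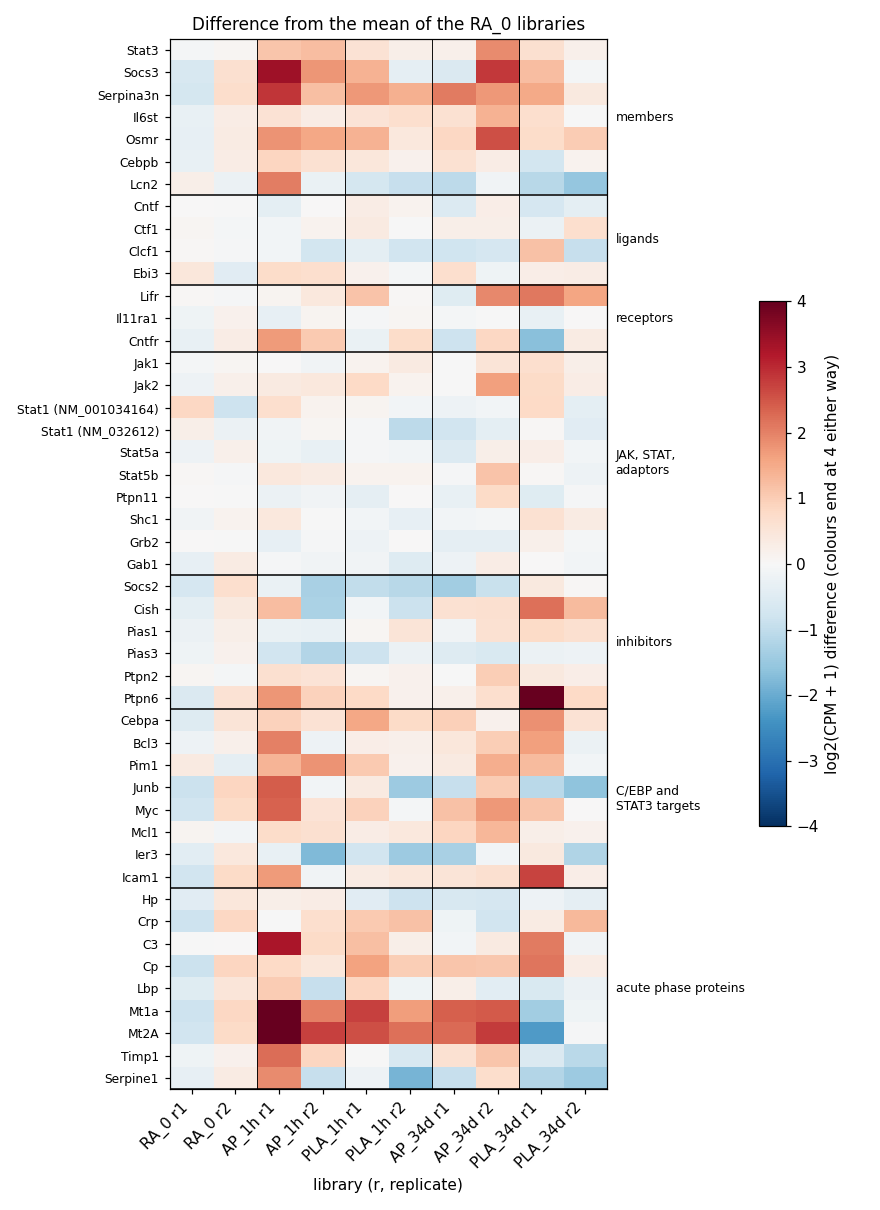
Difference of each library from the mean of the RA_0 libraries, in log2(CPM + 1), for the 7 genes and for tested transcripts of the 6 pathway lists; red is higher and blue lower, with colours ending at 4. Socs3, Mt1a, Mt2A and C3 are darkest in AP_1h replicate 1, and the Stat3, Osmr and Il6st squares are darkest in AP_34d replicate 2.

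Genes induced by glucocorticoids, which also raise metallothioneins, were read beside the members. Of 8 tested, 5 had an unadjusted p under 0.05 upward and 0 downward in AP_1h against RA_0, where 8.89% of all transcripts had one in either direction. In AP_34d 3 were upward and 1, Dusp1, was downward (4.77% of all transcripts), in PLA_1h 2 were upward and 1, Per1, was downward (2.59%), and in PLA_34d there were 0 of each (3.2%). The log2 difference was -1.34 ± 0.59 for the phosphatase gene Dusp1 (unadjusted p 0.0457, limma adjusted p 0.967) and -1.13 ± 0.48 for the clock gene Per1 (0.0406 and 1.00). Fkbp5, a chaperone of the steroid receptor, was 21.5 and 21.7 CPM in RA_0, 239 and 149 CPM in AP_1h, 108 and 154 CPM in PLA_1h, 229 and 68.3 CPM in AP_34d, and 36.9 and 40.9 CPM in PLA_34d. The Fkbp5 difference in AP_1h against RA_0 was 3.07 ± 0.50 on the log2 scale, with a limma adjusted p of 0.0934. Tsc22d3, an anti-inflammatory target of the receptor, was 864 and 848 CPM in AP_1h and at most 397 CPM in every other library. The part of this response in the levels of the members was not tested.

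Markers of other cells were read beside the members. Of 10 neutrophil genes 2 were tested, and their summed level was between 1.56 and 19.0 CPM, highest in AP_1h replicate 1, the library with the most Lcn2. S100a8 and S100a9, granulocyte calcium-binding proteins, were at most 3.89 and 11.4 CPM. The granule genes Elane, Ltf and Mpo were at most 0.108, 0.112 and 0.561 CPM. PLA_1h replicate 2, where S100a9 was highest, had 3 Lcn2 reads.

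Macrophage markers, 9 of 9 tested, summed to 121 and 111 CPM in RA_0, 330 and 123 CPM in AP_1h, 147 and 116 CPM in PLA_1h, 261 and 142 CPM in AP_34d, and 307 and 93.2 CPM in PLA_34d. AP_1h replicate 1, PLA_34d replicate 1 and AP_34d replicate 1 were the 3 highest. Cd68, a lysosomal protein of macrophages, was 24.0 CPM in AP_1h replicate 1, the library highest in Socs3, Serpina3n, Lcn2 and Cebpb, and 5.53 CPM in AP_34d replicate 2, the library highest in Stat3, Osmr and Il6st. The scavenger receptor Cd163 was 18.2 and 19.9 CPM in AP_34d against 3.34 and 4.46 CPM in RA_0, with an unadjusted p of 0.00105 and a limma adjusted p of 0.595.

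The other lists were described in the same way. Fibroblast genes summed to between 915 and 3378 CPM and Col1a1 was between 155 and 1248 CPM, lowest in PLA_34d replicate 2 and highest in RA_0 replicate 2. Adipocyte genes summed to between 132 and 339 CPM, highest in AP_34d replicate 1, where Fabp4 was 318 CPM. Adipoq, Plin1 and Lep were highest, at 73.0, 16.4 and 10.3 CPM, in PLA_34d replicate 1. In that library Fabp4 was 138 CPM and the adipocyte sum was 237 CPM. The keratinocyte gene Krt14 was at most 0.649 CPM, so this marker of epidermis was at or near 0. Krt10, the only keratinocyte gene tested, was between 1.17 and 5.40 CPM. Keratinocyte genes summed to between 1.76 and 6.11 CPM. B cell and lymph node genes summed to 423 CPM in PLA_34d replicate 1 and to at most 34.3 CPM elsewhere. Muscle genes summed to between 145466 and 362378 CPM, and RA_0 replicate 1, the lowest library for 5 members, had the highest sum. Single muscle genes also differed between the groups compared. The slow fibre gene Tnnt1, a troponin, was 118 ± 18.1 CPM in AP_1h and 1445 ± 607 CPM in RA_0 (SD), a log2 difference of -3.54 ± 1.12 with an unadjusted p of 0.00993 and a limma adjusted p of 0.364. The slow myosin gene Myh7, which overlaps another gene and so is uncertain, was 367 ± 7.66 and 5982 ± 2004 CPM in these groups, with a log2 difference of -3.98 ± 1.29, an unadjusted p of 0.0115 and a limma adjusted p of 0.384. The fast myosin gene Myh1 was 8150 ± 2941 CPM in AP_1h and 36658 ± 2506 CPM in PLA_1h, a log2 difference of -2.22 ± 0.97 with an unadjusted p of 0.0444 and a limma adjusted p of 1.00. Tnnt1 was 500 and 136 CPM in PLA_1h, 1010 and 203 CPM in AP_34d, and 1736 and 129 CPM in PLA_34d. Myh7 was 2235 and 579 CPM, 4064 and 813 CPM, and 11934 and 499 CPM in the same groups. Low levels of both were thus seen outside AP_1h as well. The part of fibre type in the levels of the members was not tested.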

How the data were processed

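RNA from muscle beneath the skin was sequenced by the authors from polyadenylated libraries (TruSeq kit, HiSeq instrument). Per the submitters' processing notes, reads passed CASAVA 1.8.2 and cutadapt 1.2.1, were aligned to rn4 with Bowtie2 2.1.0, counted per transcript with HTSeq 0.5.4p3 and scaled with edgeR 3.4.2. Use of strand was not given in the sources used here. The signal the authors deposited is CPM with TMM factors, whose columns do not sum to 1e+06. In every library 100% of values were whole multiples of 1 read within 0.01 reads, so read counts were recovered.

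Values were tested as log2(CPM + 1) with limma 3.58.1 (eBayes with a mean trend) in R 4.3.3, 1 mean per group over all 10 libraries, for the 10259 transcripts (59.6%) that reached 1 CPM in each library of some group. The threshold was 0.05 for p adjusted by Benjamini-Hochberg. An exact permutation test of 2 libraries against 2 cannot go below p = 0.333, so none is given. Settings changed in turn were the pseudocount (0.25, 4), the filter (none, or a mean of 5 CPM), the scaling, the mean trend, a replicate block, an rRNA covariate, sums per symbol, fits of the compared groups alone, and the omission of single libraries. The study's limma-voom, edgeR 4.0.16 and DESeq2 1.42.0 were run on the recovered reads. The fits were tested on simulated counts. Figures used matplotlib 3.10.9 in Python 3.11.15.

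The members, the lists (IL-6 family ligands, receptors, kinases and adaptors, inhibitors, targets, acute phase, glucocorticoid response and cell markers) and the rules were chosen with earlier results of these data known. Fits are printed for the member with the smallest unadjusted p in each comparison and for any under 0.05. List genes are named for an unadjusted p under 0.05 with libraries apart, at most 3 per list and direction, and the first genes of each marker list whatever their value. Some list genes are not reported here. Genes at or near 0, Clcf1, Jak2, Stat5b, C3, Fabp4 and Krt10 were named after their values were seen. So were the targets Cebpa, Bcl3, Junb, Myc, Ier3 and Icam1. All 7 transcripts matched RefSeq GRCr8, from which the sequences come.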

Additional observations from a re-analysis of the deposited data

How the results depend on the processing

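No member passed the adjusted threshold in any of the 10 comparisons under the 24 alternatives, and the lowest adjusted p was 0.0515 (Socs3 in AP_1h against RA_0, compared groups alone). The 16 member differences printed with an SE kept their direction in each alternative that could be fitted; with a mean of at least 5 CPM Lcn2 was not tested. Other members turned when 1 library was left out. In AP_34d against PLA_34d the number of 7 genes that were higher then ran from 4 to 7. Against RA_0 it ran from 6 to 7 in AP_1h, 5 to 6 in AP_34d and in PLA_1h, and 4 to 6 in PLA_34d. Some turned under other settings too. With the Rn45s covariate Stat3 and Socs3 turned in PLA_34d against RA_0, where 3 of 7 genes were higher. With DESeq2 and edgeR Stat3 turned in AP_34d against AP_1h. Of 42 member comparisons, 9 met the study's criteria; with 1 library left out the number ran from 1, without RA_0 replicate 1, to 15, without AP_34d replicate 1, and was 5 without AP_1h replicate 1. The cause was not tested, beyond that 1 library then stands for its group and is assumed to vary like the others. Under the other alternatives the number was between 6 (limma-voom) and 13 (DESeq2). With a replicate block it was 9 and the members passing remained 0. Per the study's methods the tissue was taken at sacrifice, so no animal was sampled again at a later time. The deviations of same-numbered libraries correlated between groups with r from -0.464 to 0.446. These values cannot show whether a batch joins same-numbered libraries of some groups. Depth limits Lcn2 most, with between 0 and 11 reads in 9 of 10 libraries. With 2 libraries a group, a difference that misses the threshold is not shown to be absent.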
